A study of Mus musculus with 12 samples.

Results

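The ATP-binding cassette (ABC) transporter genes were taken as every gene symbol in the count data that begins with Abca, Abcb, Abcc, Abcd, Abce, Abcf or Abcg and ends in a number with at most 1 letter after it. This rule gave 50 genes of 24421 symbols, and it used no expression value. B16F10 cells, a mouse melanoma line in culture, were given DMSO vehicle (control), 5-aza-2′-deoxycytidine (DAC, 25 nM for 72 h), sulforaphane (SFN, for 48 h) or both agents (DAC+SFN), and messenger RNA of 3 replicates per group was sequenced. The labels give the SFN dose as 5 nM for SFN single treatment and as 5 µM for the combination treatment, whereas the methods of the study give 5 µM for both, so by the labels the SFN dose also differs wherever these groups are set against each other. DAC and SFN are an inhibitor of DNA methyltransferases and an isothiocyanate known to activate the NRF2 response to electrophiles, and the comparisons ask which genes respond to each agent and to the pair.

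ABC proteins use ATP to move lipids, peptides, metal complexes, drugs and drug conjugates across membranes, and they are grouped into subfamilies by the sequence of their ATP-binding domains. Members of A mostly move lipids, B includes P-glycoprotein and carriers of peptides, heme and iron-sulfur products, C includes the multidrug resistance proteins that export glutathione conjugates and cyclic nucleotides, D acts in peroxisomes and lysosomes, and G exports sterols and drugs. Proteins of E and F have no membrane-spanning part and work on ribosomes. In melanoma the family is known mainly for drug efflux and for carriers found in melanosomes.

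Promoter windows of 250 bases before and 50 bases after the transcription start were found in RefSeq (GRCm38.p6) for 38 of the 50 genes, 45 windows in all. The 250 bases upstream are shown for Abca12, which had the largest change of the family, for Abca1, the one gene called between DAC+SFN and SFN, and for the neighbours Abca8a and Abca8b, which moved in opposite directions. Capitals mark the E-box CACGTG, the GC box GGGCGG and the TATA box TATAAA, on either strand.
Abca12 (chr1:71414911-71415160, minus strand): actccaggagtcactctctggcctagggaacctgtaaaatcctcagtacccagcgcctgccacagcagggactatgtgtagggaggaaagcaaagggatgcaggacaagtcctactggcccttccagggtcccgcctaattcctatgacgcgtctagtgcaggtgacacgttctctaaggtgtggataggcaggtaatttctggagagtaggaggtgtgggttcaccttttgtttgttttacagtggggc
Abca1 (chr4:53159896-53160145, minus strand): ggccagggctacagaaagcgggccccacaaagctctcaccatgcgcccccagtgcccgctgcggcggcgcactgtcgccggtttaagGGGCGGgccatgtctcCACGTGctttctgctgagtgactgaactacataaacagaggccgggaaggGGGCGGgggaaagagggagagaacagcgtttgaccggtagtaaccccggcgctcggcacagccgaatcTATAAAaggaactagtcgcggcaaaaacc
Abca8a (chr11:110095938-110096187, minus strand): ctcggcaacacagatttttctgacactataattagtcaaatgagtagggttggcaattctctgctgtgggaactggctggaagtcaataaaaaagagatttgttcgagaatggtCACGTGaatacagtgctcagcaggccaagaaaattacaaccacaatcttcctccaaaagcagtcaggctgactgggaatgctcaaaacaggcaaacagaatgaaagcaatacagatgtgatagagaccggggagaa
Abca8b (chr11:109995846-109996095, minus strand): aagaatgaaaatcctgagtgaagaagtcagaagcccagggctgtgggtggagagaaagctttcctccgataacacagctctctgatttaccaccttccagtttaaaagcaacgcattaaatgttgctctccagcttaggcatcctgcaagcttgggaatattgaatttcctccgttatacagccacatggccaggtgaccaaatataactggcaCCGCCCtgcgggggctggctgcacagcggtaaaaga

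The Abca1 stretch holds 20 CpG sites, against 5 for Abca12, 4 for Abca8a and 6 for Abca8b. Within the 300-base windows, the highest CpG number per gene had a median of 25 (range 4 to 45) over the 22 windowed genes that passed the expression filter described next, and of 10 (range 1 to 22) over the 16 that did not, beside a median of 7 over all 32851 windows of the reference. The upstream stretch of Abca12 matched none of 9 motifs searched on both strands. Of all reference windows, 35.7% hold a GC box, 13.6% a TATA box and 7.15% an E-box, and the numbers among the 45 windows of ABC genes were 21, 7 and 6. The core letters of the antioxidant response element, TGACNNNGC, were in 7 of the 45 windows and in 12.4% of all windows. The AP-1 site TGAGTCA (5.20% of all windows) and the direct repeat bound by LXR (0.0152%) were in 0 of the 45, the M-box TCATGTG (3.77%) in 1, the cAMP response element (1.79%) in 2 and the CCAAT box (37.4%) in 16. AP-1 and cAMP response letters can overlap those of the antioxidant response element. These are matches of letters only, and methylation was not measured.

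Between 15880957 and 27291436 reads were assigned to genes in a library. A gene passed the filter when it reached 1 CPM (count per 1000000 counts, which is 15.9 to 27.3 counts here) in 3 of the 12 libraries, and 28 of the 50 ABC genes did, beside 11638 genes in all. The 7 melanocyte lineage markers (Mitf, Tyr, Tyrp1, Dct, Pmel, Mlana and Sox10) all passed, with summed levels between 21399 and 30074 CPM. Fibroblast markers summed to 31.6 to 43.4 CPM in replicate 2, 77.2 to 105.8 CPM in replicate 1 and 265.2 to 384.9 CPM in replicate 3, so they followed the replicate number. Most of that sum was the collagen gene Col1a1 in replicates 1 and 3. In replicate 2 Col1a1 was 15.6 of 31.6 CPM in control, 18.1 of 38.3 CPM with DAC and 16.7 of 34.6 CPM with SFN. It was 24.1 of 43.4 CPM there with DAC+SFN. Pdgfrb (207 to 506 counts), Col1a2 (26 to 202) and Pdgfra (26 to 65) of the list also passed the filter. Thy1 and Dcn, further markers of the list, had at most 2 counts. After removal of the group means, libraries with the same replicate number correlated across genes with a mean of 0.544 (18 pairs, 0.270 to 0.732). Pairs with other numbers had a mean of -0.267 (36 pairs, -0.597 to 0.282), so the ranges overlapped slightly. The replicate number was therefore a block in the edgeR model, on the basis of the means. Library numbers in the labels follow the replicate number, so a library batch and the replicate cannot be told apart.

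In control cells, ABC genes were led by the ribosome-associated members. Levels between genes are compared here as CPM per kb of merged exon (mean ± SD, n = 3). Abcf2 had 79.4 ± 8.68, Abcf1 53.0 ± 4.95 and Abce1 51.8 ± 3.96 CPM per kb, and the last 2 of these did not differ beyond their spread. Further down came the peroxisomal gene Abcd3 (28.6 ± 1.14), Abcf3 (17.6 ± 1.22) and the mitochondrial gene Abcb8 (14.5 ± 0.577). Subfamily F held 41.0% of the summed level per kb of the family, B 17.1%, E 14.1%, A 10.3%, D 9.32%, C 7.16% and G 1.03%. With the longest transcript in the place of merged exons, Abce1 became the highest gene, and 18 of the 28 levels moved by more than 1 SD.

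**Figure D1:**
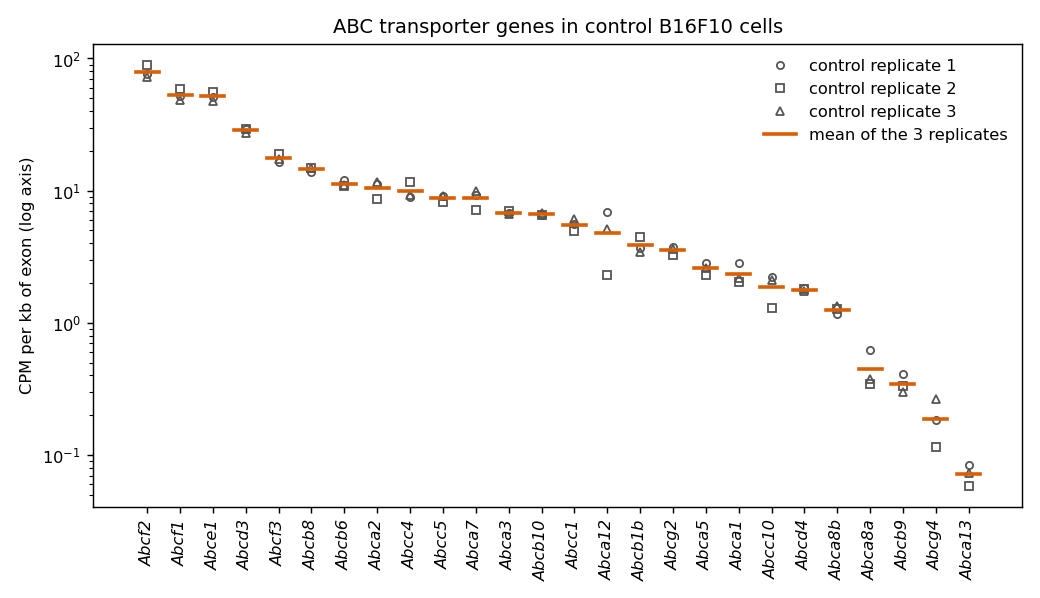
Level of 26 of the 28 ABC genes that passed the filter in control cells, as CPM per kb of merged exon on a log axis; open symbols are the 3 replicates and bars their means. Abcf2, Abcf1 and Abce1 lie above 50 CPM per kb, and the 3 symbols of Abca12 spread more than those of its neighbours.

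The remaining genes that passed lay lower. Abcb6, Abca2 and Abcc4 had 11.3 ± 0.653, 10.5 ± 1.64 and 9.93 ± 1.43 CPM per kb and did not differ beyond their spread, and Abcc5, Abca7, Abca3, Abcb10 and Abcc1 followed with means from 8.79 down to 5.53. Abca12 stood at 4.75 ± 2.30, Abcb1b, Abcg2, Abca5, Abca1, Abcc10, Abcd4 and Abca8b at means from 3.86 to 1.26, and Abca8a, Abcb9, Abcg4 and Abca13 at means from 0.447 to 0.0718. Abcb1b, which encodes one of the mouse P-glycoproteins, was thus present while its near-identical neighbour Abcb1a had 0 to 14 counts per library.

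Of the 22 genes under the filter, Abca14, Abca15 and Abcg3 had 0 counts in all 12 libraries, which allows a level of up to 0.112 to 0.191 CPM by 3 counts of the total, for counting error only. Another 11 genes never exceeded 4 counts, namely Abca16, Abca17, Abcb5, Abcb11, Abcc3, Abcc6, Abcc8, Abcc9, Abcc12, Abcg1 and Abcg5. Abcb11 is the bile salt pump of liver, Abcc8 and Abcc9 are subunits of potassium channels, and Abcg1 and Abcg5 are sterol exporters. The other 8, Abca4, Abca6, Abca9, Abcb1a, Abcb4, Abcc2, Abcd2 and Abcg8, had at most 38 counts in a library. These 22 genes stayed out of the comparisons, except for the alternative with no filter on low counts. There 19 of them could be fitted and 0 were called in any pairwise comparison. The shares of all genes called there were 0.971% with DAC, 10.5% with SFN and 21.9% with DAC+SFN compared to control. They were 12% with DAC+SFN compared to DAC and 2.79% compared to SFN.

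Changes with treatment were found for few ABC genes after SFN single treatment and for more after the combination treatment. Among the 28 tested ABC genes of the symbol rule, Abca12 was the one whose fold change exceeded 2. A gene was called at an adjusted p under 0.05 (edgeR quasi-likelihood test, Benjamini-Hochberg over 11638 genes). SFN compared to control gave 5 of 28 (17.9%, where 13.9% of all tested genes were called), with Abca8b and Abcg2 higher (all genes 8.27%) and Abca12, Abcb6 and Abcc5 lower (all genes 5.65%). DAC+SFN compared to control gave 13 of 28 (46.4%, all genes 31.6%), 8 higher (all genes 17.0%) and 5 lower (all genes 14.7%). DAC+SFN compared to DAC gave 5 of 28 (all genes 16.1%), 3 higher (all genes 9.55%) and 2 lower (all genes 6.6%). DAC+SFN compared to SFN gave Abca1 alone (all genes 1.61%), which was higher (all genes 0.937%). With a fold change above 2 as well, 1 of 28 was called in each of the first 3 comparisons (all genes 1.28%, 2.66% and 0.928%). These comparisons share control or DAC+SFN samples. DAC single treatment gave 0 of 28 (all genes 0.18%), with Abcc5, Abcd3 and Abcd4 at an unadjusted p under 0.05 (all genes 10.1%). DESeq2 also called 0 of 28 with DAC (all genes 0.713%).

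The shares of called ABC genes lay near those of all genes or above them, and the median changes were small. The median log2 fold change of the 28 genes was 0.02 with SFN and 0.08 with DAC+SFN compared to control, beside 0.00 and 0.01 over all genes. The median absolute change was 0.10 with SFN and 0.15 with DAC+SFN, beside 0.12 and 0.16 over all genes. Without the replicate block in the model, 0 ABC genes were called with SFN (all genes 0.198%), 0 with DAC+SFN compared to DAC (0.172%) or to SFN (0 of all genes), and 3 (Abca8b, Abcc1 and Abcd4) with DAC+SFN compared to control (10.3%). With replicate 2 left out of every group, 1 ABC gene (Abca12) was called with SFN (all genes 3.73%), 4 with DAC+SFN compared to control (15.3%), 3 compared to DAC (7.47%) and 0 compared to SFN (0.0258%).

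**Figure D2:**
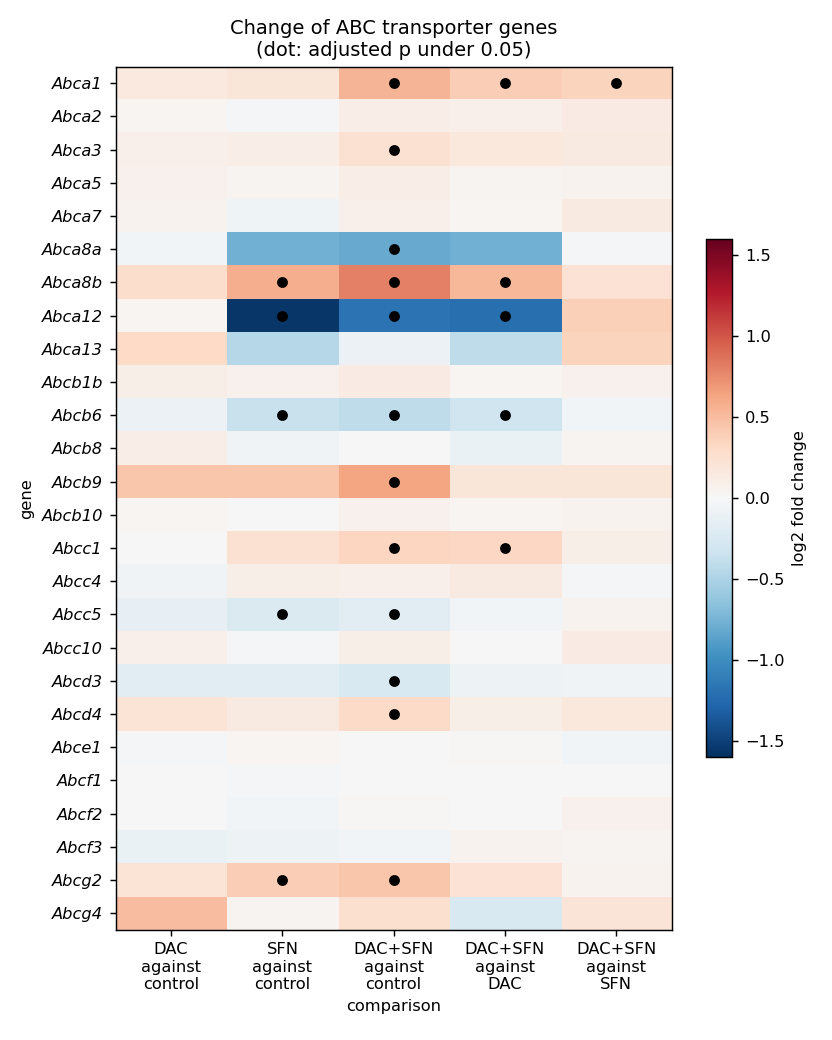
Log2 fold change (color) of 26 of the 28 tested ABC genes in 5 pairwise comparisons, with a dot where the adjusted p was under 0.05. The dots number 0, 5, 12, 5 and 1 from left to right, and the strongest color is that of Abca12 in the 3 comparisons that add SFN.

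Abca12 loads glucosylceramides into the lamellar granules of keratinocytes and is best known for the skin barrier. Its levels in replicates 1, 2 and 3 were 101.8, 34.1 and 75.3 CPM in control and 99.6, 40.3 and 70.2 CPM with DAC. They were 35.6, 10.1 and 27.5 CPM with SFN and 52.6, 11.6 and 33.8 CPM with DAC+SFN. Replicate 2 was the lowest in all 4 groups, and through it the range of control overlapped that of SFN. Within each replicate the level with SFN was below control, by log2 differences of -1.52, -1.74 and -1.45.

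Abca12 fell 2.94-fold with SFN compared to control (log2 fold change -1.56, SE 0.12, adjusted p = 3.63e-06). It fell 2.26-fold with DAC+SFN compared to control (-1.18, SE 0.12, adjusted p = 8.97e-06) and 2.30-fold with DAC+SFN compared to DAC (-1.20, SE 0.12, adjusted p = 3.57e-05). The 3 calls held when each sample was left out in turn and without replicate 2 in any group (-1.49, -1.06 and -0.996), whereas without the block the adjusted p were 0.242, 0.221 and 0.344. Abca12 was 0.38 higher on the log2 scale with DAC+SFN than with SFN (SE 0.12, adjusted p = 0.121), in all 3 replicates. This difference was called with no filter on low counts (adjusted p = 0.0299), with the 2 groups alone in the fit (0.00418) and without DAC+SFN replicate 2 (0.0453), and its adjusted p ranged from 0.00418 to 0.917 over the alternatives. The change of Abca12 with DAC was 0.03 (SE 0.11, adjusted p = 0.959), and its sign depended on the samples used.

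**Figure D3:**
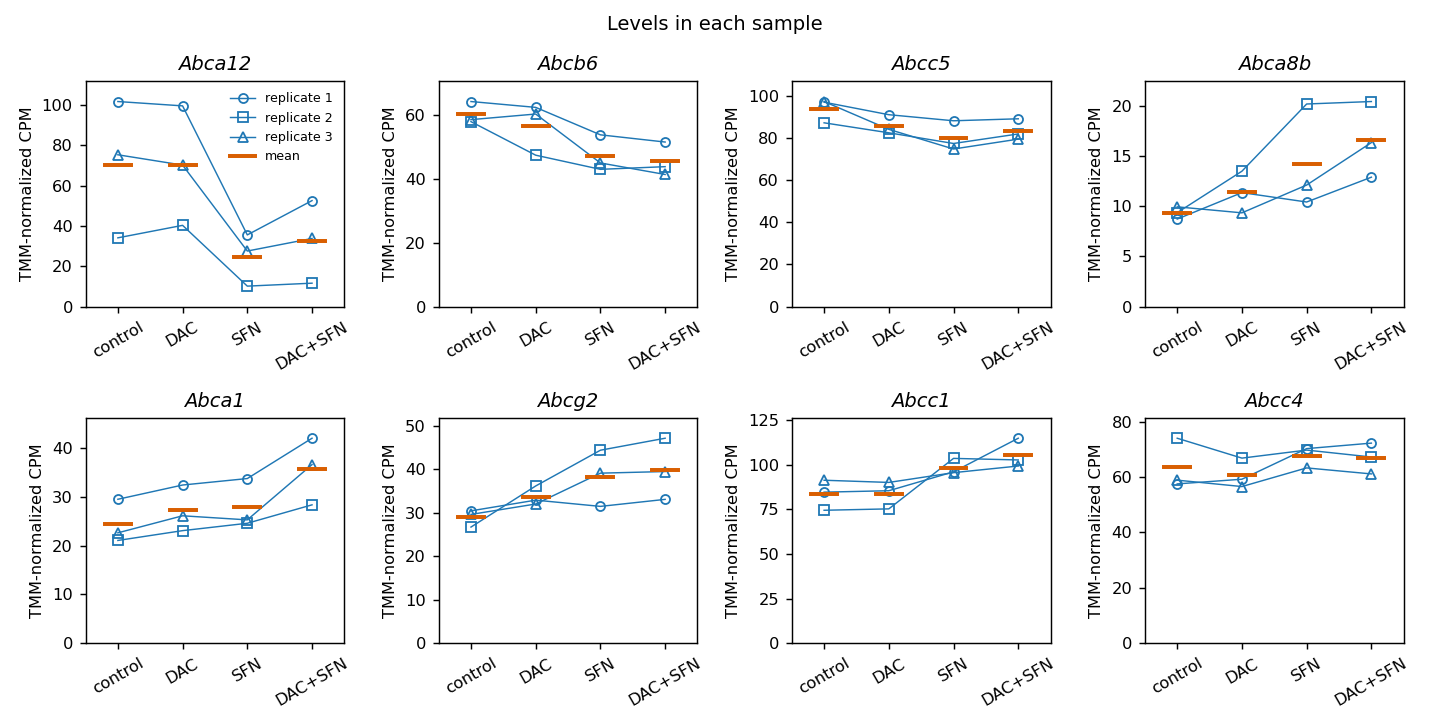
TMM-normalized CPM of 8 ABC genes in each sample, with lines joining samples of the same replicate number and bars at the mean of 3. Abca12 falls in each replicate when SFN is present, and replicate 2 is the lowest of the 3 in each group.

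Abca1 hands cholesterol and phospholipid to apolipoprotein A-I and is the best known lipid exporter of the family. Its levels in replicates 1, 2 and 3 were 29.5, 21.1 and 22.6 CPM in control, 32.4, 23.1 and 26.1 CPM with DAC, 33.8, 24.6 and 25.3 CPM with SFN, and 42.0, 28.4 and 36.6 CPM with DAC+SFN. Each replicate was highest with DAC+SFN, although the ranges of the groups overlapped. Abca1 rose 1.46-fold with DAC+SFN compared to control (log2 fold change 0.55, SE 0.08, adjusted p = 0.000131) and 1.31-fold compared to DAC (0.39, SE 0.08, adjusted p = 0.00382). Compared to SFN it rose 1.28-fold (0.35, SE 0.08, adjusted p = 0.0379), and here the call was lost when any of the 3 SFN samples or DAC+SFN replicate 1 or 3 was left out (adjusted p from 0.0519 to 0.304). The log2 changes with DAC and SFN single treatment were 0.16 (adjusted p = 0.531) and 0.19 (adjusted p = 0.114).

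Abca8a and Abca8b are neighbouring lipid transporter genes of similar sequence on chromosome 11, and they moved in opposite directions. Abca8b had 8.73, 9.37 and 9.96 CPM in control, 11.4, 13.5 and 9.36 CPM with DAC, 10.4, 20.2 and 12.1 CPM with SFN, and 12.9, 20.5 and 16.4 CPM with DAC+SFN. Every SFN and DAC+SFN sample lay above the control samples, and replicate 2 was the highest in both groups. Abca8b rose 1.49-fold with SFN (log2 fold change 0.58, SE 0.16, adjusted p = 0.0246), 1.75-fold with DAC+SFN compared to control (0.81, SE 0.16, adjusted p = 0.00144) and 1.44-fold compared to DAC (0.53, SE 0.15, adjusted p = 0.0308). The call with SFN was lost without control replicate 1, control replicate 2 or SFN replicate 2 (adjusted p from 0.0534 to 0.204), with a log2 fold change of 0.37 without either replicate 2 sample and 0.27 without replicate 2 in any group, and the call compared to DAC was lost without any of 5 samples, all but DAC replicate 1 (0.0531 to 0.119).

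Abca8a had 22 to 85 counts per library. Its levels were 3.91, 2.15 and 2.36 CPM in control, 3.19, 2.23 and 2.88 CPM with DAC, 1.79, 1.13 and 2.08 CPM with SFN, and 1.18, 1.05 and 2.66 CPM with DAC+SFN. Replicate 3 did not share the lower level with DAC+SFN. Abca8a fell 1.75-fold with DAC+SFN compared to control (log2 fold change -0.81, SE 0.28, adjusted p = 0.0425), and the call was lost without control replicate 1 or 2 or without DAC+SFN replicate 1 or 2 (adjusted p from 0.107 to 0.273). Its log2 fold change ran from -0.47 without DAC+SFN replicate 1 and -0.53 without control replicate 1 to -1.30 without DAC+SFN replicate 3. The counts of Abca8b divided by those of Abca8a gave 2.24, 4.36 and 4.22 in control and 3.57, 6.06 and 3.25 with DAC. The quotient was 5.84, 17.9 and 5.82 under SFN and 10.9, 19.5 and 6.16 under DAC+SFN. The DAC samples overlapped those of control and of SFN. Reads shared by near-identical stretches were discarded by the authors, so the split between the pair is uncertain.

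**Figure D4:**
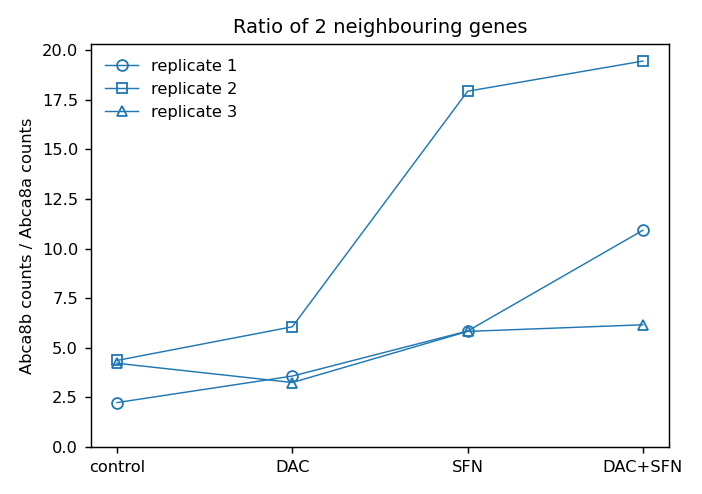
Ratio of Abca8b counts to Abca8a counts in each sample, with lines joining samples of the same replicate number. The ratio lies between 2.24 and 4.36 in control, between 3.25 and 6.06 with DAC and between 5.82 and 19.5 in samples given SFN, where replicate 2 is the highest.

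Abca3, known for packing surfactant lipids in the lung, had 63.5, 66.1 and 62.5 CPM in control, 67.2, 68.8 and 67.5 CPM with DAC, 73.0, 70.2 and 64.1 CPM with SFN, and 84.8, 74.4 and 69.6 CPM with DAC+SFN. The DAC+SFN samples lay above all control samples. Abca3 rose 1.19-fold with DAC+SFN (log2 fold change 0.25, SE 0.06, adjusted p = 0.00917), and the call was lost without replicate 1 of control or of DAC+SFN (adjusted p from 0.0709 to 0.0715). Abca2, Abca5, Abca7 and Abca13 were not called in any comparison, with log2 fold changes from -0.02 to 0.13, 0.04 to 0.10, -0.07 to 0.14 and -0.45 to 0.36.

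In subfamily B, Abcb6, a carrier linked to porphyrins, was lower with SFN. Its levels were 64.2, 57.9 and 58.5 CPM in control, 62.4, 47.4 and 60.3 CPM with DAC, 53.8, 42.9 and 44.9 CPM with SFN, and 51.5, 43.8 and 41.3 CPM with DAC+SFN. No sample with SFN reached the control samples. Abcb6 fell 1.28-fold with SFN (log2 fold change -0.36, SE 0.08, adjusted p = 0.00589), 1.32-fold with DAC+SFN compared to control (-0.41, SE 0.08, adjusted p = 0.00110) and 1.25-fold compared to DAC (-0.32, SE 0.08, adjusted p = 0.0121). The calls of SFN and of DAC+SFN against control held when each sample was left out in turn, the call compared to DAC was lost without DAC replicate 3 (adjusted p = 0.0589), and without replicate 2 in any group the adjusted p for SFN was 0.0740. The GENCODE annotation places a second gene, Gm29253, on 2932 exon bases of Abcb6 on the same strand, and that symbol is not among the counted ones.

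Abcb9, a lysosomal peptide transporter with 33 to 84 counts per library, had 2.30, 1.85 and 1.69 CPM in control, 2.23, 2.42 and 3.14 CPM with DAC, 2.92, 2.90 and 2.17 CPM with SFN, and 3.09, 3.40 and 2.61 CPM with DAC+SFN. The DAC+SFN samples lay above the control samples. Abcb9 rose 1.56-fold with DAC+SFN (log2 fold change 0.64, SE 0.22, adjusted p = 0.0397), and the call was lost without control replicate 2 or 3 or DAC+SFN replicate 1 or 2 (adjusted p from 0.0980 to 0.149). Its relatives Tap1 and Tap2, which carry peptides for antigen presentation and are named outside the rule, had log2 fold changes with DAC+SFN of 1.06 (SE 0.19, adjusted p = 0.000741) and 0.36 (SE 0.23, adjusted p = 0.258). The mitochondrial genes Abcb8 and Abcb10 and the P-glycoprotein gene Abcb1b were not called, with log2 fold changes between -0.11 and 0.13.

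Abcc1 encodes multidrug resistance protein 1, an exporter of glutathione conjugates. Its levels were 84.7, 74.5 and 91.4 CPM in control, 85.5, 75.3 and 90.1 CPM with DAC, 96.1, 104 and 95.6 CPM with SFN, and 115, 103 and 99.3 CPM with DAC+SFN. The SFN and DAC+SFN samples all lay above the control and DAC samples. Abcc1 rose 1.27-fold with DAC+SFN compared to control (log2 fold change 0.34, SE 0.08, adjusted p = 0.00483) and 1.26-fold compared to DAC (0.34, SE 0.08, adjusted p = 0.0114). The call compared to DAC was lost without DAC replicate 2 or DAC+SFN replicate 1 (adjusted p from 0.0740 to 0.0790), and that compared to control was lost without replicate 2 in any group (0.0547).

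With SFN alone the change of Abcc1 was 0.24 (SE 0.08, adjusted p = 0.0553), which missed the threshold. It passed with DESeq2 (adjusted p = 0.0442), with no filter on low counts (0.0293), in the robust fit (0.0478), with the 2 groups alone in the fit (0.0279) and without control replicate 3 (0.0386), and its adjusted p ranged from 0.0279 to 0.521 over the alternatives. The log2 fold change was 0.14 without SFN replicate 2 (adjusted p = 0.330) and 0.12 without replicate 2 in any group (0.521). Abcc1 changed by 0.01 with DAC (SE 0.08, adjusted p = 0.990), and by 0.10 between DAC+SFN and SFN (SE 0.08, adjusted p = 0.551).

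Abcc4, multidrug resistance protein 4, exports cyclic nucleotides and prostaglandins. Its levels were 57.5, 74.0 and 58.9 CPM in control, 59.2, 66.8 and 56.6 CPM with DAC, 70.3, 69.7 and 63.3 CPM with SFN, and 72.2, 67.2 and 61.1 CPM with DAC+SFN. The 4 ranges overlapped, and control replicate 2 was the highest of all 12 samples. The log2 fold change of Abcc4 was 0.10 with SFN (SE 0.08, adjusted p = 0.424), -0.06 with DAC (SE 0.08, adjusted p = 0.838) and 0.08 with DAC+SFN (SE 0.08, adjusted p = 0.453) compared to control. It was 0.14 with DAC+SFN compared to DAC (SE 0.08, adjusted p = 0.234) and -0.02 compared to SFN (SE 0.08, adjusted p = 0.934).

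Abcc5 also exports cyclic nucleotides. Its levels were 97.1, 87.2 and 97.4 CPM in control, 91.1, 82.5 and 84.1 CPM with DAC, 88.2, 77.4 and 74.8 CPM with SFN, and 89.2, 82.0 and 79.5 CPM with DAC+SFN. Each replicate was highest in control, and the ranges overlapped. Abcc5 fell 1.17-fold with SFN (log2 fold change -0.23, SE 0.06, adjusted p = 0.0169) and 1.12-fold with DAC+SFN (-0.17, SE 0.06, adjusted p = 0.0397). The call with SFN was lost without control replicate 3, SFN replicate 2 or SFN replicate 3 (adjusted p from 0.0570 to 0.107), and that with DAC+SFN without replicate 1 or 3 of either group (0.0600 to 0.179). Abcc10, which encodes multidrug resistance protein 7, was not called, with log2 fold changes from -0.03 to 0.13.

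In subfamily D, Abcd4 and Abcd3 were called with DAC+SFN compared to control and in none of the other 4 pairwise comparisons, and they moved in opposite directions. Abcd4, which takes part in the release of cobalamin from lysosomes, had 14.6, 14.3 and 13.96 CPM in control, 16.7, 15.1 and 17.9 CPM with DAC, 14.9, 16.3 and 16.3 CPM with SFN, and 18.2, 17.0 and 18.0 CPM with DAC+SFN. It rose 1.24-fold with DAC+SFN (log2 fold change 0.31, SE 0.09, adjusted p = 0.0182), and the call was lost without control replicate 3 or DAC+SFN replicate 1 (adjusted p from 0.0755 to 0.0901). Its DAC+SFN samples lay above all control samples. Abcd3, the most abundant carrier of the peroxisomal membrane here, had 193, 193 and 180 CPM in control, 190, 153 and 162 CPM with DAC, 171, 157 and 170 CPM with SFN, and 164, 143 and 172 CPM with DAC+SFN. Abcd3 fell 1.18-fold with DAC+SFN (-0.24, SE 0.07, adjusted p = 0.0158), with all DAC+SFN samples below control, and the call was lost without control replicate 2 or DAC+SFN replicate 1 or 2 (0.0687 to 0.122). Without replicate 2 in any group the log2 fold change of Abcd3 was -0.16 (adjusted p = 0.226).

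The ribosome-associated genes, which are the most abundant of the family, were not called in any comparison. Abce1, which splits ribosomes after termination, had log2 fold changes from -0.04 to 0.04 in the 5 pairwise comparisons. Those of Abcf1, Abcf2 and Abcf3 lay between -0.10 and 0.06. Abcf1 and Abcf2, and also Abcb1b, were highest in replicate 2 in all 4 groups, whereas Abca1, Abca2, Abca8a and Abca12 were lowest there.

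Abcg2, known as breast cancer resistance protein, exports drugs, urate and porphyrins. Its levels were 30.4, 26.7 and 29.6 CPM in control, 32.9, 36.2 and 32.0 CPM with DAC, 31.5, 44.4 and 39.1 CPM with SFN, and 33.1, 47.1 and 39.5 CPM with DAC+SFN. Every treated sample lay above the control samples, and replicate 2 was the highest in each treated group. Abcg2 rose 1.31-fold with SFN (log2 fold change 0.39, SE 0.11, adjusted p = 0.0266) and 1.37-fold with DAC+SFN (0.45, SE 0.11, adjusted p = 0.00644). The call with SFN was lost without control replicate 2 or 3 or SFN replicate 2 or 3 (adjusted p from 0.0589 to 0.209), and that with DAC+SFN without control replicate 2 (0.0625). The log2 fold changes were 0.24 and 0.29 without control replicate 2, and 0.22 and 0.26 without replicate 2 in any group (adjusted p = 0.357 and 0.159). Abcg4, a sterol exporter gene with 14 to 37 counts per library, was not called, with log2 fold changes from -0.24 to 0.50.

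SFN was compared once with vehicle and once on top of DAC, and these comparisons share no sample. Of the 28 ABC genes, 22 had the same sign in both (78.6%, beside 74.3% of the other 11610 genes). The log2 fold changes correlated across genes with a Pearson r of 0.952 (0.911 without Abca12) and a Spearman rho of 0.884, beside 0.787 and 0.686 over the other genes. Genes are not independent, all values come from 1 cell line, and the replicate numbers are shared. The study describes pooling of the libraries for sequencing, and the labels name no sequencing run. By the labels the SFN dose also differed between these comparisons. Abca12, Abca8b and Abcb6 were called in both comparisons, which is 3 of the 5 called in each. Of all genes, 13.9% and 16.1% were called in these comparisons. Whether the overlap exceeds that of other genes was not tested.

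**Figure D5:**
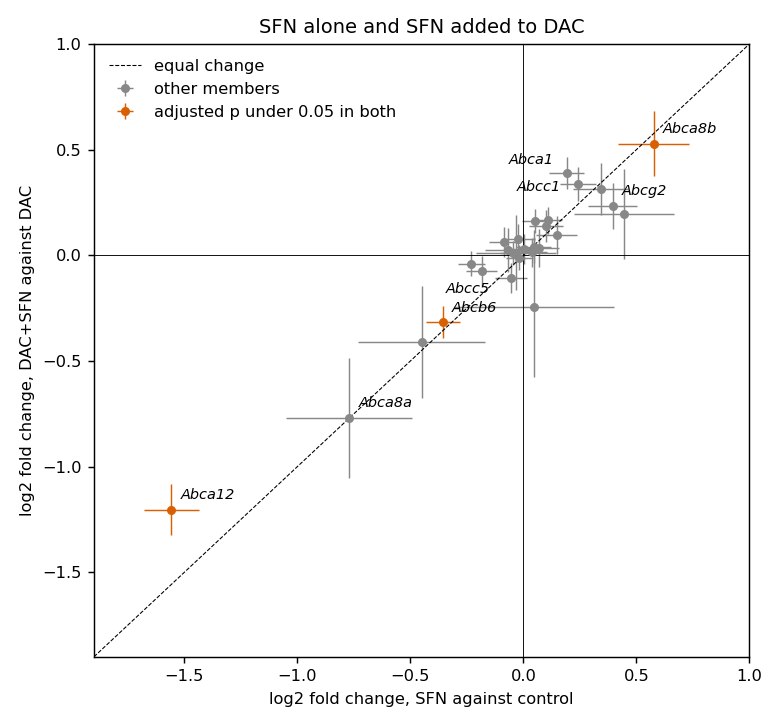
Log2 fold change of the 28 tested ABC genes with SFN compared to control (x axis) and with DAC+SFN compared to DAC (y axis), with bars of 1 SE. Abca12, Abcb6 and Abca8b (orange) were called in both, and Abca12 lies at -1.56 and -1.20.

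DAC compared to control and DAC+SFN compared to SFN likewise share no sample. Here 25 of the 28 genes had the same sign (89.3%, beside 63.9% of the other genes), with a Pearson r of 0.614 across genes (0.494 over the other genes), and none was called in both. With DAC alone the log2 fold changes ranged from -0.17 for Abcd3 to 0.50 for Abcg4, with 20 of 28 above 0 (51.9% of all genes). Whether the effect of an agent depends on the other was tested by the interaction, which called 0 of 28 ABC genes and 0 of all 11638 genes (DESeq2 0 of 28). Since the SFN dose also differed by the labels, the interaction cannot tell dependence on the other agent from dose. At an unadjusted p under 0.05 it gave 1 ABC gene, Abcc5, and 683 genes in all (5.87%).

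Genes that work with these transporters were examined in lists that were chosen with earlier results of these data known. Of 103 tested partner genes, 30 were called with SFN (29.1%, all genes 13.9%). DAC+SFN gave 47 compared to control (45.6%, all genes 31.6%) and 34 compared to DAC (33.0%, all genes 16.1%). Because of how the lists were chosen, these shares do not test whether partner genes respond more often than all genes. Of all genes, 8.27% rose and 5.65% fell with SFN, and 17.0% rose and 14.7% fell with DAC+SFN compared to control. Glutathione supply, which provides the conjugates exported by the Abcc proteins, had the most calls. Of its 12 tested genes 9 rose with SFN (all genes 8.27%), with a list median of 0.50 beside 0.00 over all genes. Gsta3, a glutathione transferase gene, rose by 3.94 on the log2 scale (SE 0.24, adjusted p = 8.12e-07), Gclm, a subunit of the rate-limiting enzyme of glutathione synthesis, by 1.11 (SE 0.10, adjusted p = 1.45e-05), and Gclc, its catalytic subunit, by 0.50 (SE 0.06, adjusted p = 7.34e-05). With DAC+SFN compared to control 9 rose (all genes 17.0%) and 1, Gsta1, fell (-0.47, SE 0.15, adjusted p = 0.0260).

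Of the 11 tested regulators of ABC genes, 1 rose and 2 fell with SFN, where 8.27% and 5.65% of all genes did. Nr1h4, the bile acid receptor, rose by 0.47 (SE 0.08, adjusted p = 0.00189), while Srebf2 and Srebf1, which drive sterol and fatty acid synthesis, fell by 0.44 (SE 0.06, adjusted p = 0.000335) and by 0.32 (SE 0.08, adjusted p = 0.0187) on the log2 scale. Of the 10 tested partners of Abca1 in cholesterol efflux and lipoprotein handling, 4 rose and 1 fell with DAC+SFN compared to control, where 17.0% and 14.7% of all genes did. Lipa, the lysosomal acid lipase, rose by 0.81 (SE 0.06, adjusted p = 8.65e-07), and Lrp1, a lipoprotein receptor, rose by 0.43 (SE 0.07, adjusted p = 0.000270). Lrp1 also rose in DAC+SFN compared to SFN (0.36, SE 0.07, adjusted p = 0.0272), as Abca1 did. The median log2 fold changes of the regulator and efflux lists with DAC+SFN were 0.05 and 0.08, beside 0.01 over all genes.

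Among the 7 tested carriers of drugs and conjugates outside the family, 3 rose (all genes 8.27%) and none fell with SFN (list median 0.22). Slc29a1, a nucleoside carrier, rose by 0.51 (SE 0.07, adjusted p = 0.000180), and the organic anion carrier Slco3a1 by 0.43 (SE 0.09, adjusted p = 0.00407). Of 11 tested cyclases and phosphodiesterases, which make and degrade the cyclic nucleotides carried by Abcc4 and Abcc5, 3 rose (all genes 8.27%) and 2 fell (all genes 5.65%) with SFN. Adcy7 rose by 0.53 (SE 0.09, adjusted p = 0.00182) and Pde7a fell by 0.32 (SE 0.08, adjusted p = 0.0207). The list median was 0.05.

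Of 16 mitochondrial heme and iron-sulfur genes, the partners of Abcb6, Abcb8 and Abcb10, 3 rose (all genes 8.27%) and 1 fell (all genes 5.65%) with SFN. Alas1, the first enzyme of heme synthesis, rose by 0.31 (SE 0.07, adjusted p = 0.00668). Of 14 peroxisomal partners of the Abcd genes, 1 was called with SFN (all genes 13.9%), Ehhadh, a gene of fatty acid oxidation, at -0.49 on the log2 scale (SE 0.11, adjusted p = 0.00727). Of 12 translation partners of Abce1 and the Abcf genes, 1 was called with SFN (all genes 13.9%), Eif2s2, a subunit of an initiation factor, with -0.27 (SE 0.07, adjusted p = 0.0171). The medians of these 3 lists were 0.08, 0.01 and 0.05.

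Of the epidermal lipid genes that act with Abca12 in skin, 7 of 13 passed the filter, and Cers3, Alox12b, Aloxe3, Tgm1, Pnpla1 and Cyp4f39 did not. Nipal4, a gene of the skin barrier, rose with SFN by 0.60 (SE 0.16, adjusted p = 0.0209) while Abca12 fell, and the list median was -0.07. Keratinocyte markers summed to 0.602 to 1.59 CPM per library, with Krt1 and Krt10 at 0 counts in all 12. The pore genes that pair with Abcc8 and Abcc9 (Kcnj8, Kcnj11 and Kcnj1) were all under the filter.

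Markers of leukocytes, which also express Abca1 and Abcg2, summed to 4.28 to 5.93 CPM in control, 5.38 to 8.74 CPM with DAC, 7.62 to 13.9 CPM with SFN and 10.9 to 16.3 CPM with DAC+SFN. The sum was made up mainly of Cd68, a lysosomal protein gene, and Lyz2. With SFN, Cd68 rose (log2 fold change 1.11, SE 0.17, adjusted p = 0.000729), and Lyz2 missed the threshold (1.00, SE 0.33, adjusted p = 0.0535). With DAC+SFN compared to control both were called higher, Cd68 by 1.55 (SE 0.17, adjusted p = 1.98e-05) and Lyz2 by 1.02 (SE 0.33, adjusted p = 0.0289). Adgre1 was at 0 in all libraries, and Ptprc, Cd3e and Itgam had at most 3 counts. Endothelial markers summed to at most 0.766 CPM, with Cdh5 at 0. Among the melanocyte markers, Pmel and Tyrp1 had log2 fold changes of -0.36 (adjusted p = 0.0129) and -0.17 (adjusted p = 0.0478) with DAC+SFN. None of the 7 was called with SFN. The fibroblast marker Pdgfra was lower with SFN (-0.84, SE 0.23, adjusted p = 0.0240) and with DAC+SFN compared to control (-0.73, SE 0.23, adjusted p = 0.0249). No other fibroblast marker was called in either comparison. In bulk RNA, fewer cells with a transcript and less of it per cell cannot be told apart.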

How the data were processed

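The labels assign 3 samples to each of the 4 groups, and their replicate numbers come from the same labels. The study describes 3 independent repeats, and the labels do not link a sample to a culture. The authors deposited raw read counts per gene symbol. Per the methods of the study and the submitters' processing notes, single-end reads of 75 bases were checked with FastQC 0.11.7, trimmed with Trimmomatic 0.38, aligned to mm10 with TopHat 2.1.1 and counted with htseq, with multimapped reads discarded. The gene annotation and the strand setting of the counting are not given in the sources used here, so reads of genes that overlap on either strand (Abcb6, Abca3, Abca8b, Abcb9, Abcb10, Abcc10 and Abcb1b among those tested) may be shared.

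Counts were filtered (at least 1 CPM in 3 libraries), scaled by TMM and fitted with edgeR 4.0.16 (legacy quasi-likelihood fit, glmQLFTest, R 4.3.3), with group and replicate number as terms and all 12 samples in 1 fit. The batch term of the study is not named, and the replicate number was used. The numbers were taken as pairing the samples because all 18 same-numbered pairs had a correlation above 0.1, from 0.270. Pairs with other numbers had a lower mean but reached 0.282. Log2 fold changes carry a prior count of 0.125, differences within replicates a prior count of 2, and the SE is the log2 fold change over the square root of F. Tests were two-sided and p-values measure the spread between these samples. No library was a copy of another, since counts within a group gave a chi-square per gene from 13.2 to 35.9. At the totals given, 1 CPM is 15.9 to 27.3 counts, and genes near it have wide errors.

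The members, the partner and marker lists and the tests were chosen with earlier results of these data known. Members were named, and statistics were given for called members and for Abca12, Abcc1 and Abcc4, and from each list called genes, at most 3 per comparison by adjusted p. Gcn1, Lass3 and Emr1 were looked up and are not among the symbols counted. Positions and exon lengths came from GENCODE M21, where all 50 members were found. The fits were tested on simulated counts. Alternatives were RLE size factors, DESeq2 1.42.0, no filter, at least 10 counts in every sample, no block, edgeR's version 4 and robust fits, a prior count of 2, only the groups compared, each sample left out in turn and, chosen after seeing the data, replicate 2 left out of every group. Figures were drawn with matplotlib 3.10.9. Results for some single genes are not reported here, and figures that name genes leave them out.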

Additional observations from a re-analysis of the deposited data

Results flagged for a closer look

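Abcc5 was the one ABC gene for which the change with DAC differed in sign between the backgrounds in every replicate. It was lower with DAC than with vehicle in 3 of 3 replicates (log2 fold change -0.13) and higher with DAC+SFN than with SFN in 3 of 3 replicates (0.06). The test of the difference itself, the interaction term of edgeR, gave 0.19 (unadjusted p = 0.0373), which failed the correction over 11638 genes (adjusted p = 0.850). By the labels the SFN dose also differed between these groups. Groups of 3 samples were too small to look for single samples far from the others.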

How the results depend on the processing

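The replicate block decided most calls. Without it, the number of ABC genes called was 0 of 5 with SFN, 3 of 13 with DAC+SFN compared to control, 0 of 5 compared to DAC and 0 of 1 compared to SFN (all genes 0.198%, 10.3%, 0.172% and 0%), and the numbers of partner genes called in these comparisons were 2, 24, 2 and 0 in the place of 30, 47, 34 and 1. With replicate 2 left out of every group, the numbers were 1, 4, 3 and 0 for ABC genes (all genes 3.73%, 15.3%, 7.47% and 0.0258%) and 15 (SFN), 19 (DAC+SFN compared to DAC) and 0 (compared to SFN) for partner genes. With each sample left out in turn, ABC genes called ranged from 2 to 5 with SFN (all genes 6.26% to 12.6%), from 7 to 12 with DAC+SFN compared to control (20.1% to 36.1%), from 3 to 6 compared to DAC (6.62% to 20.5%) and from 0 to 2 compared to SFN (0% to 6.01%), and partner genes from 17 to 29 with SFN, from 20 to 37 with DAC+SFN compared to DAC and from 0 to 7 compared to SFN. With no filter on low counts, 8 of 47 ABC genes were called with SFN (all genes 10.5%) and 2 of 47 with DAC+SFN compared to SFN (2.79%). With only the groups compared in the fit, the numbers were 8 of 28 (16.5%) and 2 of 28 (10.5%), and the fold change threshold left 1 with SFN, 1 with DAC+SFN compared to control, 1 compared to DAC and 0 compared to SFN. For partner genes, DAC gave 1 call with DESeq2 (all genes 0.713%), 2 with no filter (0.971%) and 8 with only the groups compared (5.69%). DAC+SFN compared to DAC gave 19 with only the groups compared (6.53%). DAC+SFN compared to SFN gave 6 with DESeq2 (3.52%), 6 with no filter (2.79%) and 12 with only the groups compared (10.5%).

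The other counts of calls stayed within 1.5 times under RLE size factors, DESeq2, the count minimum of 10 and both other edgeR fits. Changes of sign were found for small changes that were not called. The log2 fold change of Abca12 with DAC was -0.00107 without the block, -0.0638 without replicate 2 and from -0.134 to 0.114 with single samples left out. That of Abcc1 with DAC was -0.00108 without replicate 2 and from -0.0528 to 0.0751 with single samples left out. For Abcc4, single samples left out gave -0.145 to 0.0314 with DAC, -0.00826 to 0.163 with DAC+SFN compared to control and -0.0970 to 0.0459 compared to SFN. Genes near 1 CPM (Abca8a, Abcb9, Abca13 and Abcg4) are limited by depth, and the cause of the changes with the block was not tested.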
